A study of Drosophila melanogaster with 3 samples.

Results

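Head-to-head genes are neighbours on opposite strands whose transcription start sites face away from each other across a short stretch of DNA, so that the stretch is upstream of both. The optimal peak set of CG12155-eGFP held 1036 summits within 500 bp of a protein-coding start that belongs to such a pair, out of 5202 summits in all. These 1036 head-to-head summits were 19.9% of the set and 35.3% of the 2932 summits within 500 bp of any protein-coding start, and the other 1896 are called the other promoter summits below. A summit was included where the start it was near had, 1 to 500 bp upstream, the start of a second coding gene read the other way, and no binding value beyond presence in the set was used. A summit near several pairs was given to the pair with the nearest start. The annotation held 1995 such gene pairs with 3815 genes, of which 137 genes belonged to more than 1 pair.

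An antibody against GFP was used for ChIP-seq, the sequencing of DNA bound to a precipitated protein, on whole Drosophila melanogaster embryos of a transgenic line that carries CG12155 fused at its C terminus to eGFP. By the labels there is 1 group with 3 biological replicates, each a pool of male and female embryos collected over 0 to 24 hours of development, so any stage and tissue of the embryo may have contributed. All samples share the single transgenic line, and enrichment in a library without the tagged protein was not analysed here. With 1 group there is no comparison between conditions. The files hold called regions without reads behind them, and library depth is unknown.

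Promoters shared by divergent genes are common in compact genomes such as that of the fly, and in flies they are known for housekeeping genes, which most cells use. In the fly, the factors Dref, M1BP and BEAF-32 bind short DNA motifs at promoters of that kind, and a stretch free of nucleosomes usually lies just upstream of an active start. A summit between facing starts is upstream of both genes, and peak position alone does not tell which gene it serves.

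The sequences below show what lies under these summits. Each stretch is read from the RefSeq copy of the Release 6 genome, build dm6, on the plus strand from the start of the minus-strand gene to that of the plus-strand gene, with gene starts from Ensembl. The first is shown because it belongs to the tagged gene itself. Its gap is longer than the stretch printed, which is the 300 bases at X:7728419-7728718 centred between its 2 summits, with 25.3% GC. Capitals mark the 21 bases around each summit.
NELF-B/CG12155: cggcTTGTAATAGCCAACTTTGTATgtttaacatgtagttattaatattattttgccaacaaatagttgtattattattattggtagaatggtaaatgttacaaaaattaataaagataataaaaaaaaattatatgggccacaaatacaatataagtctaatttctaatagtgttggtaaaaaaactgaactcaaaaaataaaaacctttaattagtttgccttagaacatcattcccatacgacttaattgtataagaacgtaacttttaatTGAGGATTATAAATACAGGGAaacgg
The next 3 are the strongest summits that lie between the starts, with no annotated exon inside the gap, for gaps of up to 100, over 100 to 200 and over 200 to 300 bp, and show how much room each gap leaves. They lie at 3L:8721272-8721324, at 3R:31616160-31616303 and at 3L:6184920-6185189. Capitals mark the 21 bases around the summit, fewer in CG32022/CG6511, where the printed stretch ends 4 bp from it.
CG32022/CG6511: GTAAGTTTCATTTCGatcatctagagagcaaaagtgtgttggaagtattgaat
Mnat9/CG1792: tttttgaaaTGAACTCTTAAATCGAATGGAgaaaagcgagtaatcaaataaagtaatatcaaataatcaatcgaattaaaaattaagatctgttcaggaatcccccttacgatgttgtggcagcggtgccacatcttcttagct
D19B/CG43293: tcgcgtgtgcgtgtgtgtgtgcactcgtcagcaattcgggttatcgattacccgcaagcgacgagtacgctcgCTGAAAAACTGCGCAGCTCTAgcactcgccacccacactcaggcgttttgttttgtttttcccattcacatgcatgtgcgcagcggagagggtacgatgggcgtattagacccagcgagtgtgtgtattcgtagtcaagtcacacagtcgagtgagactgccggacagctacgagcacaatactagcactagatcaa
The last pair of sequences are from summits between the starts in gaps of up to 300 bp, again with no annotated exon inside. They are the strongest of these whose gap holds a match to the DNA replication-related element DRE (TATCGATA) or to motif 1 (GGTCACAC). Capitals mark the match. They lie at 3L:9426758-9427010 and 3L:9134405-9134560. The matches were centred 78 bp from the summit of Atat/Shc and 29 bp from that of bol/Dhpr.
Atat/Shc: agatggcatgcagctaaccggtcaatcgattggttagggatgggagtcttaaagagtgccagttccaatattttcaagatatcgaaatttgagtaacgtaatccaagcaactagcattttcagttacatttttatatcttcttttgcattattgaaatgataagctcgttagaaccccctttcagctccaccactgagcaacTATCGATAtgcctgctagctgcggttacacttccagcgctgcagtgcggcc
bol/Dhpr: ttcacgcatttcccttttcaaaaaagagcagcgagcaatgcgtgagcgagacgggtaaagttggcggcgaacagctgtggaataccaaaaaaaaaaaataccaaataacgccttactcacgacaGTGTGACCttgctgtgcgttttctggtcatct

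Head-to-head promoters were bound more often than the promoters of other genes. Of the 1995 pairs, 1025 had an optimal summit within 500 bp of a facing start (51.4%, 95% Wilson interval 49.2 to 53.6%), against 1657 of 10130 protein-coding genes with no such partner (16.4%, 15.6 to 17.1%). Over all 13945 protein-coding genes together the bound share was 26.2%. When the 5202 strongest regions of each replicate were taken in place of the optimal set, 49.9% ± 1.05 of the pairs and 16.1% ± 0.653 of the other genes were bound (SD, n = 3). The difference was 33.8 ± 0.420 percentage points, many times the spread between replicates, and was positive in 3 of 3 (exact two-sided sign-flip permutation test p = 0.25, the smallest that 3 replicates allow). A pair has 2 starts and so a wider window than a single gene. With 1 window of 1000 bp per pair or gene, 50.7% of the pairs and 14.0% of the other genes were bound. All intervals cover counting error only.

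The bound share varied between chromosomes. It was 58.5% of 542 pairs on 3R (interval 54.3 to 62.6%), 53.8% of 392 on 3L (48.9 to 58.7%), 50.8% of 388 on 2L (45.8 to 55.7%), 46.9% of 377 on 2R (42.0 to 52.0%) and 42.2% of 289 on X (36.7 to 48.0%). On chromosome 4, 1 of 7 pairs was bound, and its interval of 2.57 to 51.3% overlaps those of 3L, 2L, 2R and X. Some pairs are not separate from each other. The histone genes, which package DNA, lie on 2L as a tandem repeat of near-identical copies with 42 pairs, none of them bound, and reads from such copies cannot be told apart. In addition, 199 pairs share both closest starts with another pair, among them 37 pairs within mod(mdg4), a trans-spliced gene annotated in parts. With such pairs counted once and the histone repeat left out, 958 of 1833 pairs were bound (52.3%), and the share was 58.5% on 3R, 56.8% on 2L, 54.3% on 3L, 46.8% on 2R and 41.5% on X. The order of 2L and 3L was thus turned, and their intervals overlap. This count was added after the data were seen. Of the 970 pairs with no optimal summit, 554 (57.1%) had a summit in the relaxed pooled list, which holds background as well as peaks.

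The length of the gap between the starts went with how often a pair was bound. Of pairs with a gap of over 200 to 400 bp, 60.1% were bound, against 41.9% of those with 1 to 200 bp and 48.7% of those with over 400 to 500 bp. In replicates 1, 2 and 3 the share was 59.3%, 58.5% and 57.4% for gaps of over 200 to 400 bp, against 43.9%, 37.9% and 41.1% for gaps of 1 to 200 bp. The difference between these classes was 17.5 ± 2.74 percentage points (SD, n = 3) and had the same sign in 3 of 3 replicates (exact sign-flip permutation p = 0.25). Against gaps of over 400 to 500 bp it was 12.1 ± 3.48 percentage points, also positive in 3 of 3 (exact sign-flip permutation p = 0.25). These class limits for the comparison were joined after the values were seen. With pairs of the same starts counted once and the histone repeat left out, the shares were 59.3% for over 200 to 400 bp, 43.4% for 1 to 200 bp and 52.2% for over 400 to 500 bp. The differences over the replicates were then 15.2 ± 2.73 and 7.72 ± 3.84 percentage points (SD, n = 3; each positive in 3 of 3, exact sign-flip permutation p = 0.25), so the second was smaller by over 1.5 times.

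Among neighbouring classes of 50 bp, the largest step came at 200 bp. This comparison was picked after the values were seen, so its p-value below does not test a limit set beforehand. Pairs with a gap of over 150 to 200 bp were bound in 37.6% of cases (56 bound pairs, interval 30.2 to 45.6%), and pairs with over 200 to 250 bp in 63.2% (153 bound pairs, interval 57.0 to 69.0%). With the repeated pairs treated as above, these shares were 42.3% (33.9 to 51.1%) and 62.6% (56.1 to 68.6%), and they differed by 16.3 ± 3.20 percentage points over the replicates (SD, n = 3; 3 of 3, exact sign-flip permutation p = 0.25). Longer gaps bring more sequence into the window. Over wider classes, 60.7% of pairs with a gap of over 200 to 300 bp and 40.6% of those with over 100 to 200 bp were bound, and with 1 window of 1000 bp centred on the midpoint the shares were 60.0% and 40.3%. Beyond the limit of 500 bp the share was 45.2%, 32.5%, 29.1%, 42.0% and 25.8% in successive classes of 100 bp up to 1000 bp, with no steady fall. Pairs whose starts overlap, with gene bodies running into each other, are not head-to-head by the rule, and 12 of 35 of these had a summit (34.3%, interval 20.8 to 50.8%).

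**Figure D1:**
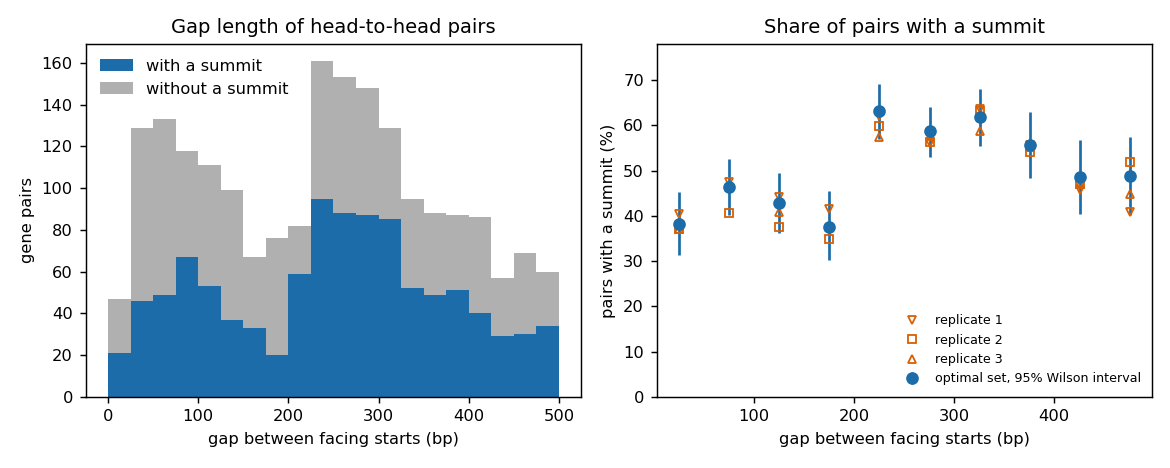
Left, the number of head-to-head gene pairs (vertical axis) by gap between the facing starts in bp, with pairs that have an optimal summit in blue and those without in grey. Right, the percentage of pairs with a summit in gap bins of 50 bp, as blue points with 95% Wilson intervals for the optimal set and open symbols for each replicate; all symbols stand higher at over 200 to 250 bp (63.2% in the optimal set) than at over 150 to 200 bp (37.6%).

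Most head-to-head summits lay between the facing starts. Measured against the closest facing starts of each pair, 760 of 1036 summits were between them (73.4%, interval 70.6 to 76.0%), and 71.5% ± 0.451 in the replicates (SD, n = 3). Of these 760, 694 were outside all protein-coding genes, and most of the rest were in introns (44) or 5' UTRs (18) of other transcripts. Between the starts there were 1.61 summits per kb, against 0.133 per kb in the 500 bp on the far side of either start, where 266 summits lay. Summits between the starts were nearer the plus-strand start in 417 cases and nearer the minus-strand start in 340.

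The share of summits between the starts was higher in longer gaps. With gaps of 1 to 100 bp, 24.2% of 182 summits were between the starts, and with over 100 to 200 bp 56.4% of 140 were. The share was 86.5% of 334 for over 200 to 300 bp, 90.9% of 241 for over 300 to 400 bp and 92.8% of 139 for over 400 to 500 bp.

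Gaps of over 200 to 300 bp had their summits closest to the centre. There the median distance from summit to midpoint was 44.5 bp, 181 summits (54.2%) were within 50 bp of the midpoint, and 217 of the 289 between the starts were in the middle 50% of the gap. The median distance to the midpoint was 81.5 bp for gaps of over 300 to 400 bp and 120.5 bp for gaps of over 400 to 500 bp. The distance to the nearest start changed less, with medians of 86.5 bp for gaps of over 200 to 300 bp and 113 bp for gaps of over 400 to 500 bp.

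**Figure D2:**
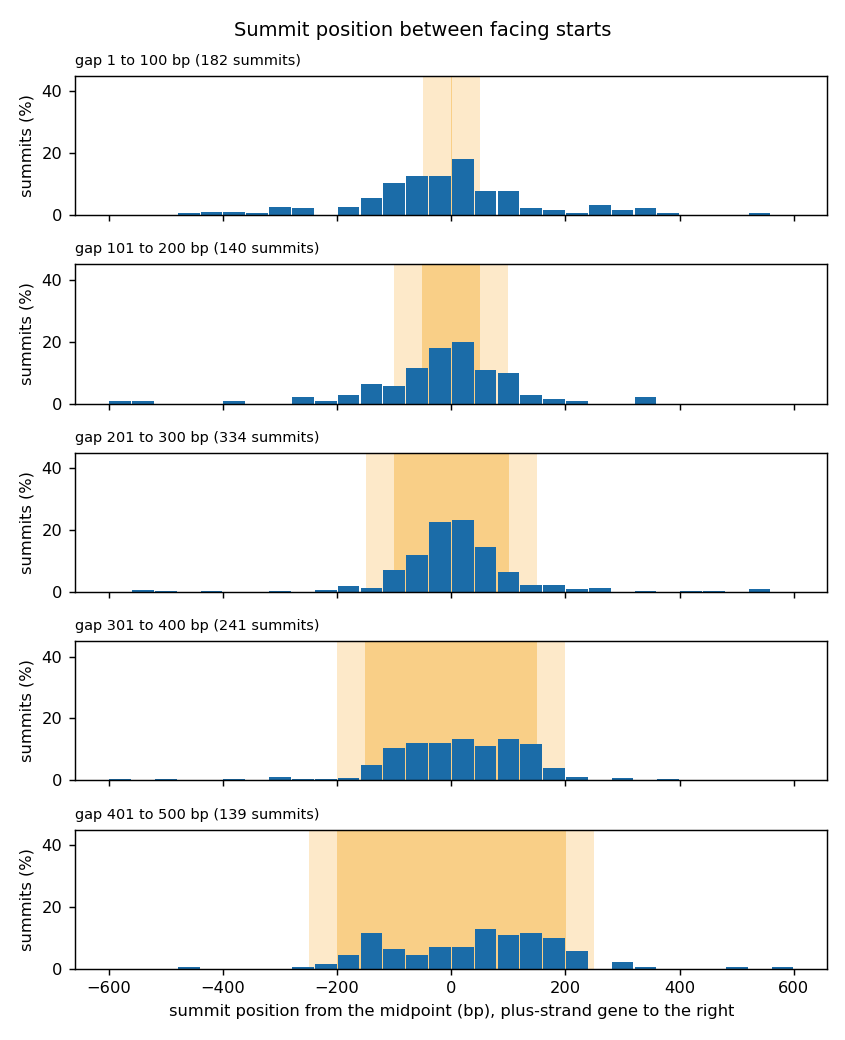
Summit position from the midpoint between the closest facing starts in bp (horizontal axis, plus-strand gene to the right), as the percentage of head-to-head summits in bins of 40 bp, in 5 panels by gap length. The dark band reaches the shortest gap of the class and the light band the longest; summits gather near the centre for gaps of over 200 to 300 bp, where 54.2% were within 50 bp of the midpoint, and spread towards both starts for gaps of over 400 to 500 bp.

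The other 276 summits lay beyond one of the closest starts, inside the gene. Of these, 216 were in a 5' UTR, 56 in an intron and 2 each in coding exons and 3' UTRs. Their median distance beyond the start was 73 bp, and 172 were within 100 bp of it. Another annotated start of the same gene lay farther out, within 500 bp, for 187 of them (67.8%), so many lie upstream of an alternative start. In 10 cases the summit was over 500 bp from both closest starts and was included through another facing start of the pair. With 1 start per gene, 80.0% of 861 head-to-head summits were between the starts.

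Most bound pairs had a single summit. Of the 950 pairs that were given a summit, 864 had 1 and 86 had 2. In 40 of the 86 both summits were between the starts, in 29 one was between and one beyond, in 5 there was one beyond each start, and in 12 both were beyond the same start. The spacing was 199 to 839 bp with a median of 204 bp, and 75 pairs had it under 250 bp. No neighbouring summits anywhere in the optimal set were closer than 199 bp, so most of these pairs have a spacing near the smallest value that the list holds. In 82 of the 86 pairs both peaks overlapped strong regions of all 3 replicates. Support is an overlap of regions, so 1 replicate region can support both summits. At CG17327/CG7518 both took the same region of replicate 2, of rank 80. The count therefore does not show that each replicate had 2 summits.

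The gene of the tagged protein belonged to one of these pairs. CG12155 (FBgn0029957) faces NELF-B, the gene of a subunit of the negative elongation factor, which holds RNA polymerase II paused, across a gap of 394 bp on X. One summit, in the peak X:7728301-7728544, stood 72 bp from the NELF-B start and ranked 826 of 5202 by signal. The other, in the peak X:7728488-7728917, stood 52 bp from the CG12155 start and ranked 1483. In replicates 1, 2 and 3 the first had ranks 975, 525 and 1110 and the second 1230, 1287 and 3416. The first was thus the stronger in all 3, and its position varied more, at 96, 72 and 46 bp from the NELF-B start, while the second was at 341, 342 and 341 bp.

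Head-to-head summits were stronger than the other promoter summits. Signal was used only as a rank within each list, with 1 the strongest. The median rank of head-to-head summits was 2069.5, against 2557.5 for the other promoter summits. In replicates 1, 2 and 3 the medians of head-to-head summits were 2061, 1979.5 and 1973, against 2601, 2545 and 2553 for the other promoter summits, and the groups' medians did not overlap. The difference was -562 ± 20.3 ranks (SD, n = 3), in the same direction in 3 of 3 (exact sign-flip permutation p = 0.25). The strongest 25% of the optimal set took in 33.6% of head-to-head summits and 26.8% of the other promoter summits. The strongest 100 peaks went the other way, with 22 head-to-head summits (2.12% of them) and 53 other promoter summits (2.80%), so head-to-head summits were 29.3% of the promoter summits there, against 35.3% in the whole set.

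Strength also went with the gap. The median rank was 1977 for head-to-head summits with gaps of 1 to 100 bp, 2384 for over 100 to 200 bp, 1649 for over 200 to 300 bp, 1860 for over 300 to 400 bp and 2744 for over 400 to 500 bp. Over the replicates, gaps of 1 to 100 bp (1974 ± 96.3) and of over 300 to 400 bp (1925 ± 172) did not differ beyond their SD. With classes joined after the values were seen, the median was 1753 for gaps of over 200 to 400 bp, against 2217.5 for gaps of 1 to 200 bp. In the replicates the difference was -389 ± 44.6 ranks (SD, n = 3), in the same direction in 3 of 3 (exact sign-flip permutation p = 0.25). By distance from the nearest head-to-head start, the 12 summits at over 400 to 500 bp, the last inside the limit, had a median rank of 2830.5, and the 22 at over 500 to 600 bp, just outside it, 1867.

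**Figure D3:**
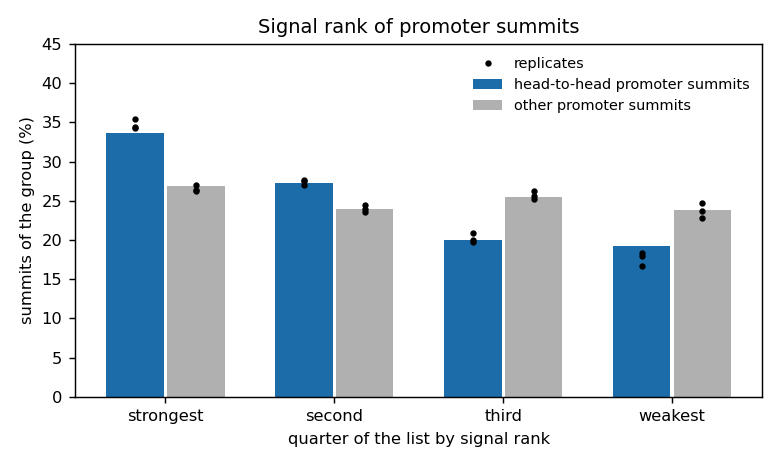
Percentage of head-to-head summits (blue) and of other promoter summits (grey) in each 25% of the list by signal rank, from strongest to weakest, with bars for the optimal set and a point for each replicate's 5202 strongest regions. The strongest 25% holds 33.6% of head-to-head summits and 26.8% of other promoter summits, and the replicate points of the groups do not overlap in any of the 4 bins.

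The replicates shared most of these summits. Of the 1036, 829 (80.0%, interval 77.5 to 82.3%) overlapped one of the 5202 strongest regions in all 3 replicates, against 1399 of 1896 other promoter summits (73.8%, interval 71.8 to 75.7%). Over all optimal peaks, 73.2% did. No head-to-head summit lacked support in every replicate, against 7 of 1896 other promoter summits (0.369%, interval 0.179 to 0.760%). A count of 0 of 1036 allows a share of up to 0.290%, the share that 3 counts would make. That limit lies inside the interval of the other promoter summits, so the groups are not told apart by this count. Support in single replicates was 2.80 ± 0.485 percentage points higher for head-to-head summits (SD, n = 3; 3 of 3 replicates, exact sign-flip permutation p = 0.25).

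The difference in support among peaks of like strength was largest in the weakest 25%. In the strongest 25% of the optimal set 98.9% of head-to-head and 99.8% of other promoter summits were supported by all 3, in the next 25% 98.9% and 98.5%, in the one after 73.9% and 72.0%, and in the weakest 26.6% and 21.5%, whose 95% Wilson intervals overlap. The median shift of the summit between the optimal set and a replicate was 12 to 15 bp for head-to-head summits and 11 to 14 bp for the other promoter summits.

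The 2 strongest head-to-head summits varied by a few bases between replicates. At Rala, the gene of a small GTPase, and Tlk, that of a protein kinase, the peak X:3719478-3720184 ranked 2 and had ranks 3, 2 and 1 in replicates 1, 2 and 3. Its summit stood 213 bp from the Rala start in replicates 1 and 2 and 219 bp in replicate 3, in a gap of 372 bp. At D19B, a zinc finger gene, and CG43293, the peak 3L:6184585-6185361 ranked 3, and its summit was 83 bp from the D19B start in replicates 1 and 3 and 85 bp in replicate 2. Its ranks in replicates 1, 2 and 3 were 2, 3 and 2. The gap of this pair, printed above, had 53.0% GC, against a median of 32.7% in the 50 bp to either side of all head-to-head summits.

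The next strongest summits were split between gaps and gene bodies. Between sti, the gene of citron kinase, and tral, that of an RNA-binding protein, the summit of 3L:12514584-12515589 ranked 6 and lay 136 bp from one start and 108 bp from the other. Its ranks in replicates 1, 2 and 3 were 5, 7 and 12. The peak X:16598381-16599395 at CG9784 and Nup153, which encodes a nuclear pore protein, held 2 summits, of which the stronger ranked 15, and both lay in an intron of CG9784, 356 and 153 bp beyond its start. The gap of this pair is 26 bp. In replicates 1, 2 and 3 they had ranks 13, 15 and 37 and ranks 223, 221 and 448.

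In the optimal set, several strong summits sat close to the centre. Art3, an arginine methyltransferase gene, and mRpS10, the gene of a mitochondrial ribosomal protein, faced each other across 257 bp, and the summit (rank 29) was 120 and 137 bp from the starts. It ranked 43, 23 and 20 in replicates 1, 2 and 3. Tcs5 and CHMP2B, the gene of an ESCRT-III membrane-remodelling protein, had a gap of 224 bp and a summit (rank 30) 108 and 116 bp from the starts. Its ranks in replicates 1, 2 and 3 were 56, 17 and 17. At brm, the gene of the Brahma remodelling ATPase, and Arl1, a small GTPase gene, the gap was 266 bp and the summit (rank 161) was 126 and 140 bp from the starts. At elm and MED27, a Mediator gene, the gap was 278 bp and the summit (rank 300) was 135 and 143 bp from the starts. In each of these 4 pairs the distances to the starts differed by under 20 bp.

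In other pairs the summit stood by one start. At mRpS23, of the mitochondrial ribosome, and CenG1A, an Arf GTPase-activating protein gene, the gap was 492 bp and the summit (rank 41) was 371 bp from mRpS23 and 121 bp from CenG1A. At Chro, which encodes the chromatin protein Chromator, and Ssl1, the gene of a TFIIH subunit, the gap was 105 bp and the summit (rank 31) lay 87 bp inside Chro in its 5' UTR. Summits lay in the 5' UTR, 22 bp inside Sps1 (rank 33), a selenophosphate synthetase gene that faces conv across 71 bp, and 13 bp inside Asap (rank 45), an Arf GTPase-activating protein gene that faces the nuclear pore gene Nup50 across 35 bp. The summit of Pex13/fsd (rank 51), where Pex13 acts in peroxisomal protein import, lay between the starts. Of the 12 strongest supported summits, 8 were between the starts and 4 beyond.

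The genes of the bound pairs were described by lists, chosen with earlier results of these data known. Of all 3815 head-to-head genes, 52.2% had a start with a summit in its 500 bp, and the counts below are to be read against that. For cytoplasmic ribosomal proteins, 31 of 36 head-to-head genes had a summit (86.1%, interval 71.3 to 93.9%; 77.8% ± 9.62 over replicates, SD, n = 3), against 34 of 56 such genes without a partner (60.7%). An example was RpL7, which faces Ripalpha across 30 bp, with a summit (rank 227) 31 bp inside RpL7. For mitochondrial ribosomal proteins, 54 of 75 genes were head-to-head, and 35 of the 54 had a summit (64.8%, interval 51.5 to 76.2%), against 6 of 21 without a partner (28.6%).

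Lists of the transcription machinery and of chromatin had larger shares of head-to-head genes than the 27.4% of all genes. So did every other list except chemosensory receptors and cuticle proteins, from 39.1% for cytoplasmic to 72.0% for mitochondrial ribosomal proteins. Of 51 RNA polymerase and elongation genes, 31 were head-to-head and 19 of these had a summit (61.3%), against 6 of 20 without a partner (30%). At 140up and Polr2B, the gene of the second largest RNA polymerase II subunit, the summit ranked 295 and was 89 bp upstream of Polr2B. For TFIID and Mediator, 28 of 45 genes were head-to-head and 16 of the 28 had a summit (57.1%), against 3 of 17 without a partner (17.6%); MED30, which faces the repair polymerase gene Rev1, was one beside MED27. For chromatin regulators, 26 of 50 genes were head-to-head and 19 of the 26 had a summit (73.1%), against 12 of 24 without a partner (50%). For the spliceosome, 22 of 33 genes were head-to-head and 13 of the 22 had one (59.1%), against 3 of 11 (27.3%). At Sf3b6, of the SF3b complex, and Tnpo the summit ranked 482.

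Lists of cell division, DNA repair, transport and metabolism ranged from 41.7 to 73.7%. A summit was found at 14 of 19 head-to-head genes of mitosis and cytokinesis (73.7%), against 13 of 20 without a partner (65.0%), among them sti and Cdc16, of the anaphase-promoting complex. It was found at 12 of 22 for DNA repair (54.5%), among them mus312 (rank 362), at 8 of 16 for DNA replication (50%), among them dpa, an MCM helicase gene, and at 10 of 18 for the nuclear pore (55.6%), against 6 of 16, 5 of 20 and 1 of 9 genes without a partner. Translation initiation factors had 10 of 18 (55.6%), complex I of the respiratory chain 10 of 20 (50%) and Vps and Snx sorting genes 10 of 17 (58.8%), against 8 of 26, 2 of 20 and 6 of 17 without a partner. The lowest of these were aminoacyl-tRNA synthetases, with 9 of 21 (42.9%), and proteasome subunits, with 10 of 24 (41.7%), against 3 of 12 and 6 of 24. In all 15 lists named so far, the share was higher among head-to-head genes than among genes without a partner. The same held over all genes, at 52.2% against 16.4%, so it was not particular to these lists.

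Chemosensory receptor and cuticle protein genes were head-to-head less often than the 27.4% of all genes. Of 179 chemosensory receptor genes 16 were, and 2 of these had a summit (12.5%, interval 3.50 to 36.0%), against 0 of 163 without a partner, which allows up to 1.84%. These were at Ir60e/CG13585, which ranked 2774, and at Gr63a/Lamtor4, which ranked 4964 and was supported by 1 replicate only. Lamtor4 acts in the lysosomal Ragulator complex. The summit was 19 bp from the CG13585 start and 303 bp from that of Ir60e, and it was 39 bp from the Lamtor4 start and 258 bp from that of Gr63a, so in both pairs it stood nearer the partner. In replicate 1 the Ir60e/CG13585 summit lay beyond the CG13585 start, 478 bp from the Ir60e start. Of 121 cuticle protein genes 3 were head-to-head, and no summit was found at these 3 or at the 118 others, which allows up to 2.54% of the 118.

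Base composition differed from that of the other promoter summits. The median GC content of the 50 bp to either side of the summit was 32.7% for head-to-head summits and 37.6% for the other promoter summits, and over the replicates they differed by -4.13 ± 0.756 percentage points (SD, n = 3), in the same direction in 3 of 3 (exact sign-flip permutation p = 0.25). Summits away from promoters also had a median of 32.7%. The difference was carried by pairs with long gaps. With gaps of over 200 to 500 bp the median was 31.7% for head-to-head summits, and with gaps of 1 to 200 bp it was 37.6%, equal to that of the other promoter summits.

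The low GC was local. In windows of the same length centred 250 bp to either side of the summit the median was 44.6% for head-to-head summits and 41.6% for the other promoter summits. The summit minus these flanks gave -11.1 ± 1.87 percentage points for head-to-head summits and -4.46 ± 1.31 for the other promoter summits over the replicates (SD, n = 3; both negative in 3 of 3, exact sign-flip permutation p = 0.25 for each). Among pairs with gaps of over 200 to 300 bp, the 50 bp to either side of the midpoint had a median GC of 25.7% in bound pairs and 27.7% in pairs with no summit, and the difference was -2.97 points in each replicate (exact sign-flip permutation p = 0.25). Both groups of pairs were thus AT-rich at the centre.

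**Figure D4:**
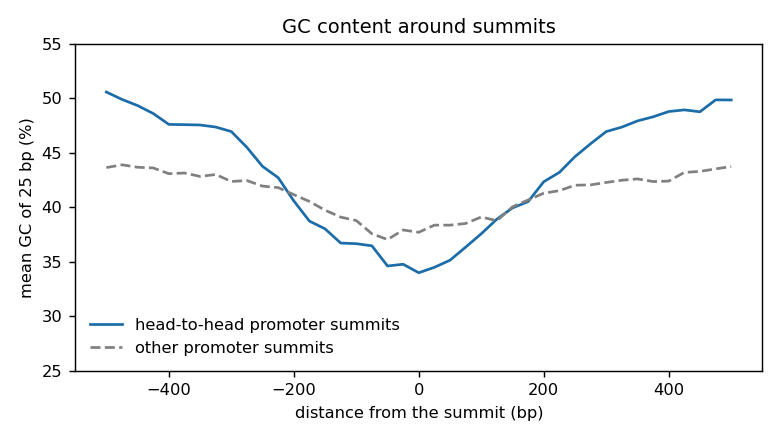
Mean GC content in windows of 25 bp (vertical axis, %) by distance from the summit in bp, for the 1036 head-to-head summits (solid blue) and the 1896 other promoter summits (dashed grey). The head-to-head profile is lower at the summit (34.0% against 37.7%) and higher beyond about 250 bp.

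Short motifs of fly promoters were counted in the same windows, on both strands. These were DRE TATCGATA, motif 1 GGTCACAC, the core CGATA of BEAF-32 sites, which DRE contains, the E-box CAGCTG, the GAGA factor site GAGAG, the TATA box TATAAA, the site CAGGTA of Zelda, an activator of the early embryo, and motif 7 CATCNCTA. CGATA was found at 31.1% of head-to-head and 24.7% of other promoter summits, and over the replicates these differed by 6.16 ± 1.03 percentage points (SD, n = 3; 3 of 3, exact sign-flip permutation p = 0.25). It was found in 25.9% of all windows of the same length just upstream of protein-coding starts. DRE was found at 5.79% and 3.85% (5.14% of all starts), and the difference was 1.92 ± 0.203 points in the same direction in 3 of 3 (exact sign-flip permutation p = 0.25). TATAAA was found at 22.0% and 17.1% (18.3% of all starts), a difference of 4.28 ± 0.367 points, again in 3 of 3 (exact sign-flip permutation p = 0.25). It is AT-rich, as are these windows, and the part of base composition in its count was not tested.

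GAGAG went the other way. It was found at 7.14% of head-to-head and 12.1% of other promoter summits, against 15.5% of all starts, a difference of -5.02 ± 0.789 points in 3 of 3 replicates (exact sign-flip permutation p = 0.25). Motif 1 was found at 2.90% and 2.16% (2.60% of all starts), motif 7 at 4.73% and 3.85% (2.30% of all starts), CAGCTG at 6.37% and 5.12% (7.59% of all starts) and CAGGTA at 1.74% and 1.90% (2.24% of all starts). The replicate differences were 0.919 ± 0.392 points for motif 1, 0.912 ± 0.632 for motif 7, 0.570 ± 0.592 for CAGCTG and 0.176 ± 0.162 for CAGGTA (SD, n = 3), and the one for CAGCTG was within its SD. For CAGGTA the optimal set and the mean of the replicates differed in sign. For motif 7 the difference was -0.451 points in windows of 25 bp to either side and 5.23 points in wider ones.

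The motif counts also moved with the gap. DRE was found at 2.40% of summits with gaps of over 200 to 300 bp (8 of 334) and at 9.34% of those with gaps of 1 to 100 bp (17 of 182). Over the whole gap of pairs with over 200 to 300 bp, DRE was present in 17.6% of 329 bound pairs and 14.1% of 213 pairs with no summit. Within 250 bp of the summit, 240 of 1036 head-to-head and 200 of 1896 other promoter summits had a DRE match. For head-to-head summits the nearest match was at a median of 97 bp, and in Atat/Shc above it was 78 bp away. For the other promoter summits it was at a median of 69 bp. A match is a run of letters, not a measured site.

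**Figure D5:**
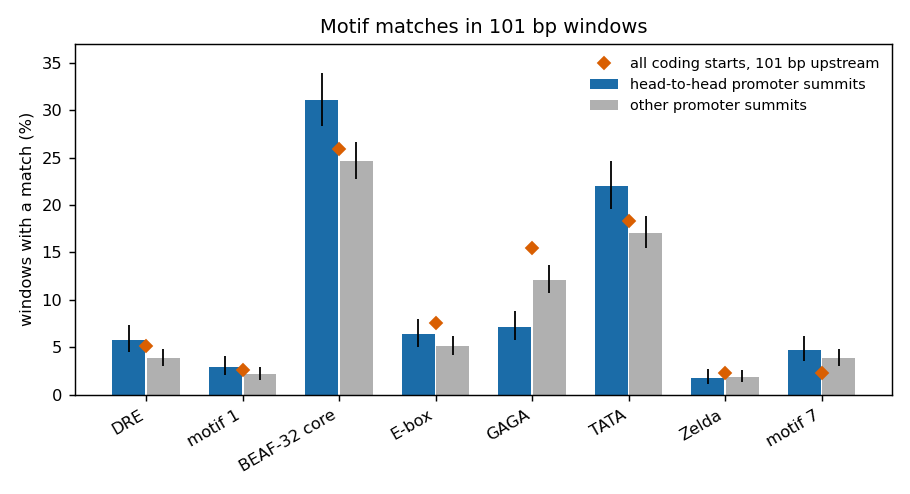
Percentage of windows of 50 bp to either side of the summit with a match to each of 8 motifs (vertical axis), for head-to-head summits (blue) and other promoter summits (grey), with 95% Wilson intervals; diamonds give the share of all protein-coding starts with a match in an upstream window of the same length. The BEAF-32 core stands at 31.1% against 24.7% and GAGA at 7.14% against 12.1%.

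A minority of summits rested on little replicate support. Of the 1036, 58 (5.60%) were among the 5202 strongest of 1 replicate only. The same held for 133 of 1896 other promoter summits (7.01%) and 210 of 2270 summits away from promoters (9.25%), so it was not particular to head-to-head summits. The strongest 3 of these were at RpS19b/CG5854 (rank 3382), CG1024/TfIIFalpha (rank 3530) and CG3652/l(2)k05819 (rank 3594). At CG1024/TfIIFalpha, whose second gene encodes a subunit of TFIIF, replicates 1, 2 and 3 gave ranks 1999, 8263 and 7386. At RpS19b/CG5854 they gave 6878, 5388 and 2116, and at CG3652/l(2)k05819 replicates 1 and 3 gave 2784 and 7037, with no overlapping region in the list of replicate 2.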

How the data were processed

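The 3 biological replicates of CG12155-eGFP embryos had their chromatin sheared to 200 to 800 bp, per the labels. The 5 lists used, on dm6, were deposited by the ENCODE consortium: a relaxed list per replicate and for the pool, and the optimal list that passes the irreproducible discovery rate. Which aligner and peak caller made them, and with what settings, is not given in the sources used.

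The deposited signal is set by the authors' caller relative to a control. Its scale is not stated, so it served for ranks inside each list alone. The deposited −log10 q-values were not used, since optimal peaks share 1 value. The summit was the peak start plus the deposited offset, column 10, which the authors gave.

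Starts came from Ensembl release 115 (arms 2L, 2R, 3L, 3R, 4 and X; 13945 protein-coding genes, 19252 start positions) and sequence from RefSeq, of the same assembly. A pair's gap was taken between its closest facing starts, 1 to 500 bp apart. Support was an overlap of 1 bp with the 5202 strongest regions of a replicate, and each replicate's values came from its own 5202. Differences were tested over the 3 replicates by an exact two-sided sign-flip permutation test, whose smallest p is 0.25, so no difference could pass 0.05. Counts have 95% Wilson intervals, but the share that a count of 0 is said to allow is the share that 3 counts would make. Signal ranks are not corrected for depth, which is unknown.

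Members and lists were chosen with earlier results of these data known. The text names the 12 strongest summits with support in all 3 replicates (except 1, not reported here), the CG12155 pair, some of the 2 highest ranked of each of 17 gene lists, the strongest pairs with 2 summits, the strongest of each gap class, the strongest with little support, and one sequence per rule; sequences from 2R or with an exon in the gap were passed over. A wrong symbol in the chromatin list was replaced after first counts were seen. The scripts were checked on simulated summits. Alternatives were windows and gaps of 200 and 1000 bp, 1 start per gene, repeated pairs counted once, stricter peak sets, each replicate left out, and other windows for GC and motifs. Python 3.11.15, numpy 2.4.6 and pandas 2.3.3 were used.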

Additional observations from a re-analysis of the deposited data

How the results depend on the processing

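No paired analysis was possible because the study has a single group, so no 2 groups share replicate numbers; head-to-head and other promoter summits were compared within each replicate. The difference in bound share between head-to-head pairs and other genes kept its direction in 12 of 12 alternatives (17.1 to 37.8 percentage points). It was 35.9 with pairs of the same starts counted once and the histone repeat left out, chosen after seeing the data. The difference in median signal rank kept its direction in 10 of 10 (-586 to -61.2). It was smallest among the strongest 50% of optimal peaks (-78.5) and with the stronger 50% of each replicate's regions (-61.2). Ranks there run over shorter lists, so these values are not on the scale of the whole lists. The number of head-to-head summits was 315 with gaps up to 200 bp and 630 among the strongest 50% of optimal peaks, where fewer pairs or peaks enter by construction. The share between the starts was 75.7% and 66.0% with promoter windows of 200 and 1000 bp. With gaps up to 200 and 1000 bp it was 39.0% and 74.5%, and with 1 start per gene 80.0%. It was 74.0% among the strongest 50% of optimal peaks and 87.1% between the farthest facing starts. Without summits under 250 bp from a stronger one, a setting chosen after seeing the data, it was 74.5%. The next values are means over replicates, to be read beside 71.5% for all 3. They were 72.8% with the stronger 50% of each replicate's regions and 71.3 to 71.7% with a replicate left out. The difference in support by all 3 replicates, 6.23 points, was 8.64 and 6.87 with windows of 200 and 1000 bp, 0.581 and 3.69 with gaps up to 200 and 1000 bp, 11.9 with the stronger 50% of each replicate's regions, 6.92 by summits within 100 bp and 4.44 to 5.31 with a replicate left out, and it turned to -0.280 among the strongest 50% of optimal peaks. The difference in median GC turned to 1.98 points with gaps up to 200 bp, where summits of longer gaps join the other group by construction, and kept its direction in the other 11 of 12. CAGGTA turned from -0.161 to 0.0159 points in windows of 51 bp and to 0.112 to 0.267 with a replicate left out, and motif 7 turned to -0.451 in windows of 51 bp. The cause of these changes was not tested. Depth is unknown, no control library was analysed, and regions are not replicates.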

Other observations

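Of all 2080 6-letter sequences, counted on both strands in the 50 bp to either side of the summit, those with the largest surplus at head-to-head summits were AT-rich. AAATAA or its reverse complement was found at 39.1% of head-to-head and 26.6% of other promoter summits, with a difference of 11.4 ± 1.24 percentage points in the replicates (SD, n = 3; positive in 3 of 3). TAAATA was found at 33.1% and 22.5%, and AAAATA at 42.2% and 32.5%. The largest deficit was in AGCGAG, at 3.19% of head-to-head and 8.02% of other promoter summits (-4.82 ± 0.908 points in the replicates, in 3 of 3), followed by ACTCGC at 3.19% and 7.49%. GAGAGA was at 1.64% and 4.75%. These words were picked for their difference, so no test is given, and the part of base composition in them was not tested.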
